A study of Mus musculus with 2 samples.

Results

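The genes described here encode receptors with which cells of innate immunity recognise microbes, dead cells and antibody-coated targets. They comprise Toll-like receptors (Tlr), C-type lectin receptors of the Clec4 to Clec10 and Clec12 groups, NLR proteins (Nlrp, Nod1 and Nod2) and Fc gamma receptors (Fcgr). Members were taken by symbol and by the protein-coding biotype of the deposited table, not by their values. They were chosen, however, with earlier results of these data known. Of the 54532 genes in the table, 51 met the rule. They are 16 C-type lectin genes, 12 Toll-like receptor genes, 19 NLR genes and 4 Fc gamma receptor genes. Clec7a, which encodes the beta-glucan receptor Dectin-1, fell outside because the table lists it as a polymorphic pseudogene.

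RNA was sequenced from cells sorted as marrow niche cells, which are stromal rather than blood cells, of female CB6F1 recipient mice that carry the CD45.2 form of CD45. The sort was meant to leave out dead cells and cells with CD45, lineage antigens or CD71. Recipients of the BMT group were irradiated in 2 sessions of 4.0 Gy and received B6.SJL marrow (CD45.1) after 4 hours. Those of the aGVHD_V group were treated alike and were also given spleen cells of female C57BL/6 mice, which cause acute graft-versus-host disease (aGVHD), an attack of donor T cells on recipient tissues. Despite a title that speaks of single cells, each group is represented by 1 library with a single value per gene, called BMT or aGVHD_V below. The sources used here do not say what the V means, how many mice stand behind a library or how long after transplantation they were sampled.

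Toll-like receptors and NOD proteins bind microbial lipids, nucleic acids and cell wall fragments, and signal through adaptor proteins to transcription factors of inflammation. Many C-type lectin receptors and Fc gamma receptors signal through short tyrosine motifs, carried by themselves or by the adaptors Fcer1g and Tyrobp, to the kinase SYK. In marrow these genes are mainly known from neutrophils, monocytes, macrophages and dendritic cells, all of which carry the CD45 antigen that the sort was meant to deplete.

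Depth was 10869191 recovered reads in BMT and 11299834 in aGVHD_V, over 15477 and 12310 genes. Marker genes of blood cells were present in both libraries despite the sort. The neutrophil and the erythroid markers each summed to more than the mesenchymal stromal markers in both. The 12 neutrophil markers, none of them at 0, summed to an FPKM (fragments per kilobase of gene and per scaled library size, as deposited) of 15231 in BMT and 20747 in aGVHD_V. The 12 monocyte and macrophage markers, again with none at 0, summed to 1266 and 1289. The 9 mesenchymal stromal markers summed to 682.1 and 28.98, with Lepr at 0 in aGVHD_V, and the 6 endothelial markers to 31.94 and 6.023, with Cdh5, Kdr and Tek at 0 there. The 9 B cell markers summed to 82.79 and 1.505, with 7 of them at 0 in aGVHD_V. The 6 plasmacytoid dendritic cell markers summed to 146 and 85.29, mostly Bst2 (126.6 and 82.58). Siglech (13 reads in BMT) and Ly6d were at 0 in aGVHD_V, and Ccr9 was at 0 in both. Erythroid (37186 and 132030), megakaryocyte (76.76 and 265) and T and NK cell markers (71.79 and 144.3) summed to more in aGVHD_V, with Gp1ba at 0 there and Ncr1 at 0 in both. The megakaryocyte sum differed mostly by Pf4 (28.36 and 190.6), and the T and NK cell sum by Nkg7 (35.37 and 72.24) and Gzmb (13.84 and 41.35). Ppbp (29.24 and 28.32) and Trac (5.733 and 5.919) were nearly level. The part of these shifts in the receptor values was not tested. In such bulk samples, fewer cells of a type and less RNA per cell cannot be told apart.

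Receptor transcripts were present at a like level in both libraries. All 51 members together summed to an FPKM of 181.7 in BMT and 197.6 in aGVHD_V, a ratio of 1.088. They took 0.059% of the reads in each. An FPKM of 1 or more in either library was reached by 25 members, which are called measured, and 19 members had no reads in either library. The remaining 7 had reads but stayed below that level. Of the 25 measured, 19 (76.0%) lay within 2-fold on the log2(FPKM + 1) scale, 4 (16.0%) were at least 2-fold lower in aGVHD_V and 2 (8.0%) at least 2-fold higher. Of all 12942 measured genes 71.9% lay within 2-fold, 19.4% were lower and 8.65% were higher, so the receptors' shares were near the background. The median difference of the measured members was 0.02 (95% order-statistic interval -0.43 to 0.36), beside -0.07 over all measured genes. The differences lay between -2.26 and 1.41. With 1 library per group there is no replicate check, and no test between the groups was made. With each library scaled to an equal FPKM sum, the median difference of the receptors was -0.45, beside -0.69 over all genes measured in that setting. Of the 26 members then measured, 8 were lower (Clec4a1, Clec4d, Clec4n and Fcgr4 besides the others) and 3 higher (Clec4g besides the others). Over all genes measured in that setting, 38.4% were lower and 6.09% higher. With a pseudocount of 5 the counts were 0 and 0, beside 3.89% and 2.75% of all measured genes. With the floor in place of absent reads 0 were lower and 5 higher, beside 7.76% and 12.5%.

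**Figure D1:**
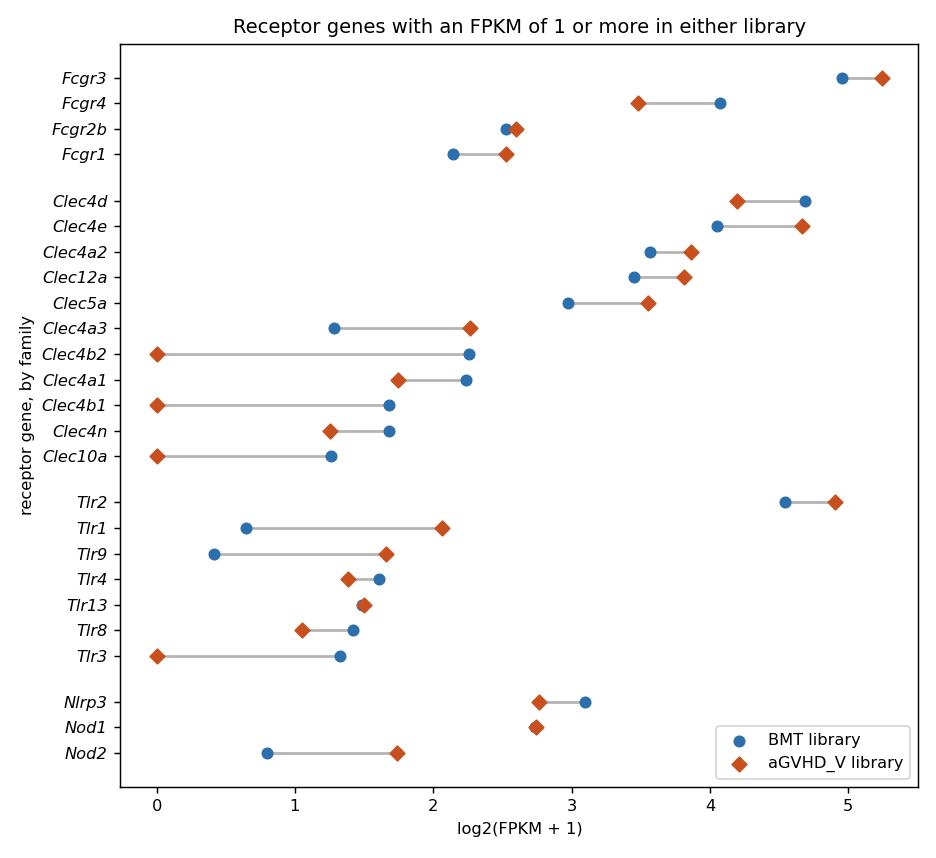
Level of the 25 measured receptor genes as log2(FPKM + 1), grouped by family, with the BMT library as blue circles, the aGVHD_V library as orange diamonds and a grey line joining the pair. The abundant genes at the top of each family have their points close together, whereas Clec10a, Clec4b1, Clec4b2 and Tlr3 sit at 0 in aGVHD_V.

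How firmly a single gene can be read depends on its reads. The commonest number of reads per detected gene was 14 in BMT and 44 in aGVHD_V, so intervals were widened by taking that many reads as 1 count. A floor of 3 such counts is 42 and 132 reads. At or over the floor in both libraries stood 11 members: Fcgr2b, Fcgr3, Fcgr4, Clec4a2, Clec4d, Clec4e, Clec5a, Clec12a, Tlr2, Nlrp3 and Nod1. These are also the 11 members with an FPKM of 5 or more in either library. All 11 lay within 2-fold, with differences from -0.59 to 0.62. Of the 8000 genes at that level 18.4% lay outside 2-fold. For none of the 11 did the widened 95% interval of the ratio exclude 1. Over all 7967 genes at or over the floor in both libraries, the interval lay below 1 for 3.36% and above 1 for 9.28%. With every read taken as independent, the interval excluded 1 for 9 of the 11, above it for 6 and below it for Clec4d, Fcgr4 and Nlrp3.

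**Figure D2:**
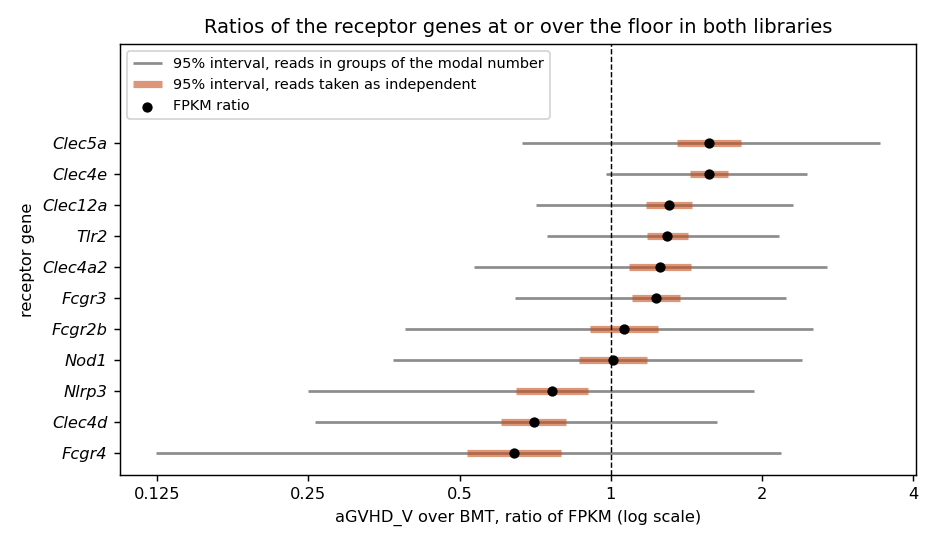
Ratio of FPKM, aGVHD_V over BMT, on a log scale for the 11 receptor genes at or over the floor in both libraries, with black points for the ratio, thin grey lines for the widened 95% interval and thick orange lines for the interval with reads taken as independent. Every grey line crosses 1, and 9 of the 11 orange lines do not.

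All 4 Fc gamma receptor genes were measured and within 2-fold, beside 71.9% of all measured genes. These receptors bind the constant part of IgG. Fcgr3 (CD16), an activating receptor that needs the adaptor Fcer1g, was the most abundant of all members, at an FPKM of 29.97 in BMT and 36.9 in aGVHD_V (ratio 1.231, widened 95% interval 0.644 to 2.234). Fcgr4, an activating receptor of neutrophils and monocytes, was at 15.82 and 10.16 (0.642, 0.124 to 2.185). Fcgr2b, the inhibitory receptor of the family, was nearly level at 4.757 and 5.054 (1.063, 0.389 to 2.534). Fcgr1 (CD64), which binds monomeric IgG with high affinity, had an FPKM of 3.408 and 4.746 on 107 and 131 reads, the latter just under the floor. The summed level of the 3 activating receptors was 10.34 times that of Fcgr2b in BMT and 10.25 times in aGVHD_V. Fcgr3 made up 55.55% of the family's FPKM in the first and 64.9% in the second. Fcgr2b, Fcgr4 and Fcgr3 lie within 106 kb of chromosome 1 (170958617 to 171064935, GRCm38), and Fcgr1 lies on chromosome 3 (96282909 to 96293969). Of the 50-base stretches in the Fcgr3 transcripts, 9.579% also occur in Fcgr2b, so reads from there could be assigned to either gene.

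C-type lectin receptors had 11 measured members, of which 8 lay within 2-fold, 3 were at least 2-fold lower in aGVHD_V and none was higher, beside 19.4% lower and 8.65% higher of all measured genes. The 3 have no reads in aGVHD_V, and with such genes set to their floor all 3 came out at least 2-fold higher instead. Of the family, 9 members lie side by side in 368 kb of chromosome 6 (122921848 to 123289870). Clec4d (MCL) and Clec4e (Mincle), neighbours 6.5 kb apart whose proteins together bind mycobacterial glycolipids, were the most abundant. Clec4d had an FPKM of 24.7 in BMT and 17.36 in aGVHD_V (ratio 0.703, 0.258 to 1.63). Clec4e had 15.53 and 24.37 (1.569, 0.98 to 2.457). The order of the pair was thus opposite in the libraries, with Clec4d at 1.591 times the level of Clec4e in the first and 0.713 times in the second, although neither interval excluded 1.

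Clec4a2 (DCIR), a receptor with an inhibitory tyrosine motif, had an FPKM of 10.82 and 13.56 (1.253, 0.534 to 2.692). Its relatives Clec4a1 and Clec4a3 had 3.705 and 2.348, and 1.429 and 3.817, on 70 and 39, and 23 and 54 reads. Clec4n (Dectin-2), which binds fungal mannans, was at 2.207 and 1.387 on 38 and 21 reads. These 3 low members lay within 2-fold on the log2(FPKM + 1) scale, although the FPKM ratio of Clec4a3 was 2.671. They were under the floor in at least 1 library, and their widened intervals held 1. Clec4b1 and Clec4b2, activating relatives of DCIR, had an FPKM of 2.209 and 3.793 in BMT on 21 and 54 reads, and no reads in aGVHD_V. Clec10a (MGL1), a galactose-binding lectin of macrophages and dendritic cells on chromosome 11 (70156197 to 70170834), likewise had 1.394 on 49 reads and none. The aGVHD_V floor of 132 reads lay above what these levels would give there, so no lower bound of a fold can be stated.

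Away from the Clec4 genes, Clec12a, an inhibitory receptor of myeloid cells that binds uric acid crystals, had an FPKM of 9.949 in BMT and 13.01 in aGVHD_V (1.308, 0.71 to 2.306). Clec5a, which pairs with the adaptor Tyrobp, had 6.85 and 10.75 (1.569, 0.666 to 3.432). Clec9a, the dead cell receptor of cross-presenting dendritic cells, had 7 reads in BMT and none in the other, and Clec4g had 16 reads in aGVHD_V only. Clec12b, Clec4a4 and Clec4f, the last a lectin of liver macrophages, had no reads. The 10 dendritic cell markers summed to an FPKM of 97.52 and 88.35, mostly H2-Ab1. Cd209a was at 0 in both libraries, Batf3 in BMT only, and Itgax, Ccl22 and Clec9a in aGVHD_V only.

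The 250 bases before the annotated start are shown for 5 abundant receptors, in which the letters GAGGAA, a core of the sites bound by the myeloid transcription factor PU.1, were searched. Of these, 4 were chosen because they hold the letters, and Tlr2 because it does not. Sequences are RefSeq promoter windows of GRCm38.p6 on the strand of the gene, 5′ to 3′, and capitals mark GAGGAA or its reverse complement TTCCTC. They are chr1:171059395-171059644 (minus strand) for Fcgr3, chr6:123289872-123290121 (minus) for Clec4e, chr6:129349994-129350243 (plus) for Clec12a, chr6:40585806-40586055 (minus) for Clec5a and chr3:83841609-83841858 (minus) for Tlr2.
Fcgr3: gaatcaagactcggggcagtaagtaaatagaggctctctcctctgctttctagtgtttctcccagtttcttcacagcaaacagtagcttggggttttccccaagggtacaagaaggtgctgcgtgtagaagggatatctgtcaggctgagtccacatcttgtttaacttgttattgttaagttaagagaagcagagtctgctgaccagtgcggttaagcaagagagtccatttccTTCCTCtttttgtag
Clec4e: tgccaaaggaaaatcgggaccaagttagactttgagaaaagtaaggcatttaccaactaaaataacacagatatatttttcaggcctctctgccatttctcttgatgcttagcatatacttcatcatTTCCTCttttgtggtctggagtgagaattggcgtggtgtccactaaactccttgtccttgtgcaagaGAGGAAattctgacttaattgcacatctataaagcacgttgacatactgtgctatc
Clec12a: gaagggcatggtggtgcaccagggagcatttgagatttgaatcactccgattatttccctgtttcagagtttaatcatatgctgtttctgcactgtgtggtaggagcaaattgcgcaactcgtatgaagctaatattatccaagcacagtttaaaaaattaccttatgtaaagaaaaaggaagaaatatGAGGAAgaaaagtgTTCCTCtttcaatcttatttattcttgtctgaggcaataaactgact
Clec5a: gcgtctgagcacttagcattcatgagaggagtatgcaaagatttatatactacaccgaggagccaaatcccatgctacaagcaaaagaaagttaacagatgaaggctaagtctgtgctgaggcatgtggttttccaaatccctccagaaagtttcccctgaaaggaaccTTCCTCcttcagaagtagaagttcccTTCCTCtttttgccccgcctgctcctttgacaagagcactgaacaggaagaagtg
Tlr2: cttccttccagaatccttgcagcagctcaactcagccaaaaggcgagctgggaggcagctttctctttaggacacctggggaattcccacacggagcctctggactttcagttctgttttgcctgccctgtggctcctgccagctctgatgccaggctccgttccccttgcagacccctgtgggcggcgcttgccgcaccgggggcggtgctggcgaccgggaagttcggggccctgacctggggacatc
In Fcgr3 the match ends 9 bases before the start, and Clec12a holds a match on each strand 55 and 41 bases before it. Clec4e has matches 117 and 50 bases before the start and Clec5a 75 and 49. RefSeq windows of 300 bases (250 before and 50 after a start) were at hand for 44 of the 51 members. At least 1 window with the letters on either strand belonged to 7 of 11 members with an FPKM of 5 or more (all but Tlr2, Clec4a2, Fcgr2b and Nod1), 9 of 11 members between 1 and 5, and 3 of 16 members without reads. Among all 27025 genes with such windows, whatever their level, the share was 31.3%, and among all 32851 windows 28.3%. No share of genes matched for level was computed. A match describes these letters only and was not measured as binding.

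Toll-like receptors had 7 measured members, of which 4 lay within 2-fold, 1 was lower in aGVHD_V and 2 were higher. Of all measured genes 71.9% lay within 2-fold, 19.4% were lower and 8.65% higher. The Toll-like receptors outside 2-fold had a highest FPKM between 1 and 5, where 43.6% of all genes lay outside it. Tlr2, which recognises bacterial lipoproteins (chromosome 3, 83836272 to 83841767), had an FPKM of 22.27 in BMT and 28.88 in aGVHD_V (ratio 1.297, 0.748 to 2.167). It alone made up 72.19% and 72.74% of the family's summed FPKM. No other Toll-like receptor gene was at or over the floor in both libraries.

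Tlr1, the partner of Tlr2 for triacylated lipoproteins, was higher at 3.168 against 0.567 in BMT, a difference of 1.41 that rests on 113 and 23 reads. Tlr6, its partner for diacylated lipoproteins, had 14 reads in BMT and none in the other. Tlr1 and Tlr6 are neighbours on chromosome 5, 18.5 kb apart, and 13.63% of the 50-base stretches of Tlr1 transcripts also occur in Tlr6, so some reads of the pair cannot be assigned with certainty. Tlr4, the receptor for lipopolysaccharide (chromosome 4, 66827584 to 66930284), had an FPKM of 2.048 and 1.604 on 138 and 95 reads.

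Among the receptors of nucleic acids, which act in endosomes, Tlr9, the sensor of unmethylated CpG DNA, was higher at an FPKM of 2.157 against 0.332, on 80 and 14 reads. Tlr3, the sensor of double-stranded RNA, had 1.504 on 95 reads in BMT and none in aGVHD_V, again too few for a bound. Tlr13, which detects bacterial ribosomal RNA, was level at 1.801 and 1.831. Tlr8 had 1.679 and 1.072 on 73 and 41 reads. Its neighbour Tlr7, a sensor of single-stranded RNA, had 22 reads in aGVHD_V only. The widened intervals of Tlr9 (0.296 to 396.1) and of Tlr1 (0.504 to 95.94) held 1. Tlr11, a profilin sensor, had 17 reads in aGVHD_V only, Tlr12 had 13 in BMT only, and Tlr5, the flagellin receptor, had none.

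**Figure D3:**
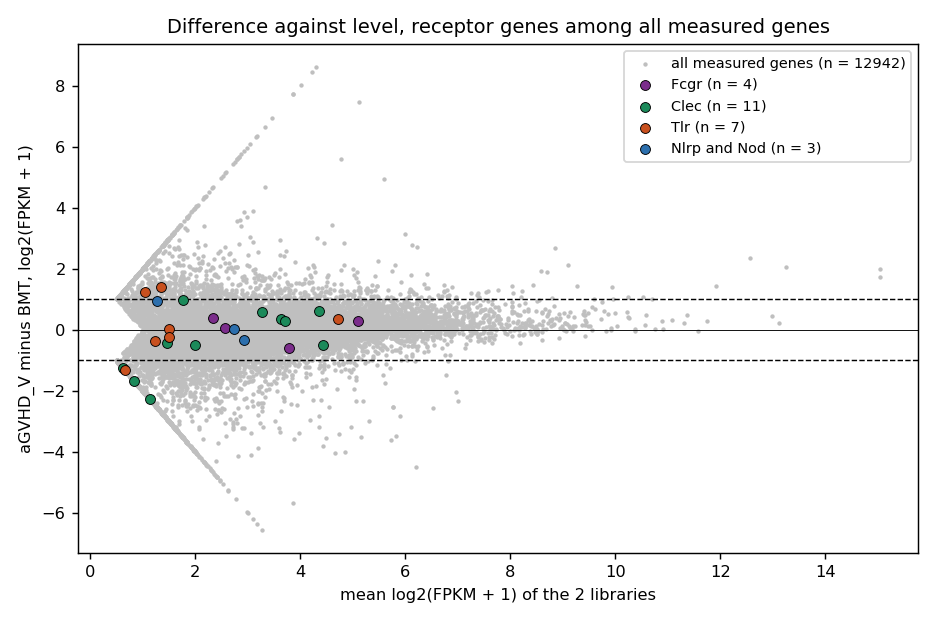
Difference between the libraries, aGVHD_V minus BMT in log2(FPKM + 1), against the mean level, for all 12942 measured genes in grey and the 25 measured receptor genes coloured by family, with dashed lines at 2-fold. The 6 receptors outside the lines lie at low levels, 4 of them on the lower diagonal edge formed by genes without reads in aGVHD_V.

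NLR proteins are cytosolic sensors, and only 3 of their 19 genes were measured. Nlrp3, which forms an inflammasome that activates caspase-1 (chromosome 11, 59541568 to 59566956), had an FPKM of 7.561 in BMT and 5.78 in aGVHD_V (ratio 0.764, 0.249 to 1.929). Nod1, a sensor of peptidoglycan fragments expressed in many cell types, was level at 5.65 and 5.706 (1.01, 0.369 to 2.402). Nod2, the sensor of muramyl dipeptide known from myeloid cells, had 0.74 and 2.338 on 45 and 125 reads. Its log2(FPKM + 1) difference of 0.94 lay just within 2-fold. Nlrp12 had 12 reads in BMT only. The other 15 members had no reads, and they include the 5 Nlrp4 genes, the 3 Nlrp9 genes, Nlrp5 and Nlrp14, which are known from egg cells. A count of 0 allows up to 42 reads in BMT and 132 in aGVHD_V at the floor used here.

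Values near the limits were as follows. Of the measured members, Clec10a had the lowest level (1.394), and the highest below the limit was Clec4g (0.61). Clec4a3 (0.99) and Nod2 (0.94) lay just within 2-fold, and Tlr9 (1.25) and Clec10a (-1.26) were the nearest outside it. Among members with a highest FPKM between 1 and 5, 6 of 14 lay outside 2-fold, beside 43.6% of 4942 genes at that level. No reads in aGVHD_V were found for 4 of the 25 measured members (16.0%), beside 12.1% of all measured genes. None of the 25 lacked reads in BMT (0.0%), beside 2.92% of all measured genes.

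The partner genes with which these receptors signal were also compared. Of 78 genes on 5 lists chosen by function, 71 were measured. Among them 59 lay within 2-fold, 8 were lower in aGVHD_V and 4 were higher, with a median difference of -0.02. These counts, and those of the single lists below, stand beside 71.9% within, 19.4% lower and 8.65% higher over all measured genes.

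Of the 19 Toll-like receptor adaptors and kinases, all measured, 17 lay within 2-fold. Myd88, the adaptor shared by most of the family, was the most abundant, at an FPKM of 23.88 in BMT and 19.63 in aGVHD_V (ratio 0.822, 0.403 to 1.549). Ticam1 (TRIF), the adaptor of Tlr3 and, with Ticam2, of Tlr4, had 3.004 on 109 reads and none, and Ticam2 (TRAM) had none and 1.242 on 52 reads. Irak3, an inhibitor of the pathway, was at 3.567 and 7.859 (2.203, 0.728 to 6.166).

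Of 9 measured co-receptors and chaperones, 8 lay within 2-fold. Cd14, which hands lipopolysaccharide to Tlr4, had an FPKM of 71.08 and 114.4 (1.609), and its widened interval of 1.099 to 2.324 excluded 1. Unc93b1, which carries the nucleic acid sensors to endosomes, was 2.187-fold lower at 35.53 and 16.24, with an interval of 1.169 to 4.513 that also excluded 1. Cnpy3, a chaperone of Toll-like receptors, had 14.89 and 7.901 (0.531, 0.164 to 1.354), and Ly86, the partner of Cd180, had 2.77 and 0.904 on 122 and 35 reads.

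Adaptors and kinases of the SYK route numbered 15, all measured, with 14 within 2-fold and a median of -0.24. Tyrobp, the adaptor of Clec5a, was the most abundant at an FPKM of 115.5 and 126.4 (1.095, 0.632 to 1.82). Fgr, a Src-family kinase, was at 13 and 6.75 (0.519, 0.186 to 1.203). Hcst (DAP10), a further adaptor of Clec5a, was higher at 4.226 and 10.52 on 37 and 81 reads.

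Among 13 measured inflammasome effectors and NOD partners, 10 lay within 2-fold, 2 were lower and 1 was higher. Txnip, a binding partner of Nlrp3, was the most abundant at an FPKM of 117.6 and 125.1 (1.064, 0.837 to 1.343). Mefv, which encodes the inflammasome sensor pyrin, had 7.533 on 297 reads in BMT and none in aGVHD_V. Its BMT level was 1.978 times the aGVHD_V floor, and the widened interval of its ratio ran from 0 to 0.679. Aim2, a sensor of cytosolic DNA, was 3.312-fold higher at 3.203 and 10.61 (interval 1.184 to 9.16). Pycard (ASC), the adaptor that joins Nlrp3 to caspase-1, had 3.233 and 0.741 on 149 and 30 reads.

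**Figure D4:**
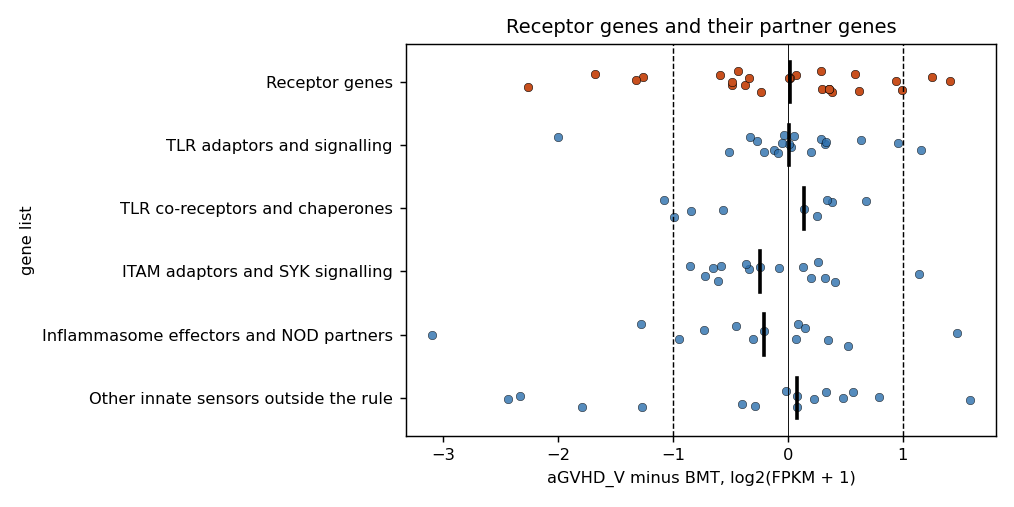
Difference between the libraries, aGVHD_V minus BMT in log2(FPKM + 1), for the 25 measured receptor genes (orange) and the 71 measured partner genes (blue) by list, with points spread vertically for visibility, a black bar at each median and dashed lines at 2-fold. The medians of all lists lie between -0.24 and 0.14, and single genes such as Mefv, Clec2d and Fcgrt lie far below.

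Of 15 measured sensors and receptors outside the rule, 10 lay within 2-fold, 4 were lower and 1 was higher. Zbp1, a sensor of Z-form nucleic acids, had an FPKM of 15.33 and 21.71 (1.417, 0.78 to 2.472). Fcgrt, the neonatal Fc receptor, which recycles IgG and is not a member of the Fc gamma receptor family, had 28.09 and 4.774 on 716 and 107 reads. Clec2d, a ligand of a natural killer cell receptor, had 31.81 and 5.103 on 468 and 66 reads, and Tmem173 (STING) 9.349 and 1.996 on 261 and 49 reads. All 3 were lower in aGVHD_V and under its floor. The widened interval of the ratio excluded 1 for Fcgrt (0.026 to 0.583) and Clec2d (0.011 to 0.739). It held 1 for Tmem173 (0.007 to 1.254).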

How the data were processed

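1 library of sorted niche cells per group was sequenced. The authors deposited FPKM values, per the file headers. Of tools and builds, edgeR 3.18.1, GRCm38 and mm10 stand in the submitters' processing notes. The sources used here name no aligner, read counter or use of strand. 1 more sample column fits no label and was not used. FPKM times the deposited gene length in bases, divided by 1000, gave whole multiples of 1 step per library for 100.0% of values above 0 (tolerance 0.05), which recovered the reads. Coordinates of all 51 members were the same in GENCODE M21.

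Differences are log2(FPKM + 1), aGVHD_V minus BMT, which understates those of low genes. Calls of within 2-fold or at least 2-fold use this scale. A low gene called within can therefore have an FPKM ratio beyond 2-fold. Ratios of single genes carry exact conditional binomial 95% intervals of reads divided by the modal read number (window of 7, read numbers under 4 left out). They cover counting error only. The computation was tested on simulated reads drawn in groups of the same modal number. Such data cannot show whether the reads of these libraries came in groups. Every measured member was named, and per partner list the most abundant gene and up to 3 with the largest difference. The value of 1 gene that this rule names is not reported here. Exons of 7 members overlap another gene, and of the measured ones these are Fcgr2b and Tlr3, whose antisense partners are listed at 0. Protein features of the receptors were planned but not analysed here. Members and lists were chosen with earlier results of these data known. Alternatives were other pseudocounts, scalings, filters and floors. Python 3.11.15, numpy 2.4.6, pandas 2.3.3 and scipy 1.17.1 were used.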

Additional observations from a re-analysis of the deposited data

How the results depend on the processing

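No paired analysis was possible because each group holds 1 library, and for the same reason no replicate could be left out. Among 25 measured receptor genes 4 were lower and 2 higher, beside 19.4% and 8.65% of all measured genes. With a pseudocount of 0.1, 4 were higher, beside 11.4% of all measured genes. With a pseudocount of 5 or an FPKM minimum of 5 the counts were 0 lower and 0 higher. The shares over all genes were then 3.89% and 2.75%, and 10.7% and 7.7%. With each library scaled to an equal FPKM sum of 1000000, 8 of 26 receptor genes were lower, beside 38.4% of all genes. The median difference of the receptor genes was -0.45 and that of the partner genes -0.56, where the median gene measured in both libraries shifted by -0.55. With genes without reads at their floor, 0 were lower and 5 higher, beside 7.76% and 12.5% of all measured genes. The counts move because the floor of the aGVHD_V library exceeds the BMT levels of the receptor genes without reads there. Centring, upper-quartile scaling, both other library sizes and no filter left all of these values within 1.5 times or within the interval of the median. With reads taken as independent, 9 of 11 intervals excluded a ratio of 1, against 0 in the widened form, so single ratios depend on whether reads came in groups. The floor of 132 reads in aGVHD_V against 42 in BMT follows from the modal read numbers, not from fewer reads in total.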

Other observations

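C-type lectin genes outside the receptor groups above were set beside them after their values were seen. Of the 8 measured, 4 were at least 2-fold lower in aGVHD_V, 2 were higher and 2 lay within 2-fold, beside 19.4% lower and 8.65% higher of all measured genes. Clec11a, a growth factor of bone-forming cells, had an FPKM of 4.735 on 171 reads in BMT and none in the other library, where the widened interval of its ratio still held 1. Clec3b, the matrix protein tetranectin, had 4.821 on 58 reads and none. Clec14a, a lectin of endothelial cells, had 1.191 on 66 reads and none. Clec2d was the fourth that was lower. Clec1b, the platelet receptor for podoplanin, had 0.533 and 1.654 on 33 and 90 reads, and Clec16a, which is expressed in many cell types, had 2.03 and 2.836. Clec2g and Clec2i were higher, on 0 and 60 reads and on 26 and 95 reads.

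Naip2 and Naip5, which encode sensors of bacterial secretion proteins and of flagellin, had an FPKM of 4.39 and 3.581, and of 3.581 and 3.244, in the BMT and the aGVHD_V library. Naip6, a close relative, had 1.8 and 0.426 on 149 and 31 reads, which is 4.226-fold lower by FPKM. It was under the floor in aGVHD_V, and the widened interval of its ratio (0.001 to 2.089) held 1. Its log2(FPKM + 1) difference of -0.97 lay just within 2-fold. Clec7a, left out of the members by its biotype, had 13.22 and 10.95 (ratio 0.828, widened 95% interval 0.307 to 1.923).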
